A study of Mus musculus with 12 samples.

Results

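Phase II conjugation enzymes attach a polar group to drugs, plant compounds, steroids, bile acids and products of oxidation. The genes described here are the 46 whose symbol begins with Gsta, Gstk, Gstm, Gsto, Gstp, Gstt, Gstz, Mgst, Ugt2 or Sult, out of 21314 genes that had a probe set annotated with 1 gene symbol. They were picked by symbol and not by a measured value, though with earlier results of these data known. They comprised 21 glutathione transferases (2 of the alpha class, 6 mu, 3 pi, 4 theta, 2 omega, 1 kappa and 3 microsomal, with no zeta gene), 6 UDP-glucuronosyltransferases of family 2 and 19 sulfotransferases. Each had 1 probe set, and 6 further probe sets that list such a gene beside others were left out.

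RNA of the colon was measured on Affymetrix arrays in 12 mice aged 6 to 8 weeks, 1 array per mouse. Wild-type mice and Parp1-/- mice, which lack poly(ADP-ribose) polymerase 1, an enzyme of DNA repair and stress signalling, drank plain water or, for 7 days, water with 4% dextran sulfate sodium (DSS), a polymer that injures the colonic lining. The 4 groups are called wild-type water, wild-type DSS, Parp1-/- water and Parp1-/- DSS, with 3 mice in each. The sources used here name no strain, sex, kind of deletion, batch or littermate status.

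Glutathione transferases join glutathione to reactive electrophiles, including products of lipid peroxidation. UDP-glucuronosyltransferases, in the membrane of the endoplasmic reticulum, transfer glucuronic acid from UDP-glucuronate, and the cytosolic sulfotransferases take sulfate from the donor PAPS. In the gut these reactions occur largely in epithelial cells, which export the conjugates through ATP-driven pumps. Many of the genes answer to sensors of oxidants and foreign compounds, among them the factor Nrf2 (gene Nfe2l2) and the aryl hydrocarbon receptor (gene Ahr).

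The deposited values were logarithms centred for each probe set on its median over the 12 arrays. They therefore show how mice differ for 1 gene. They do not show which of 2 genes is more abundant, or whether a gene or a cell type marker was expressed at all. Base 2 was assumed, with larger values standing for more RNA. Values per array are listed from mouse 1 to mouse 3 of a group, a numbering that only names the mice. In bulk colon, fewer cells of a type and less RNA per cell cannot be told apart. Near-identical copies among the Gstm, Gstp, Sult2a and Ugt2b genes may share signal on a probe set, so values of close neighbours are uncertain as separate measurements.

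Several arrays stood apart, and these facts touch every result. The mean of 11 housekeeping genes lay at -1.96, -1.15 and -1.31 for the wild-type water mice, at -1.18 for wild-type DSS 1, and between -0.05 and 0.35 in the other 8 arrays. The median of 1056 genes for smell receptors was 0.38 to 0.42 in the same 4 arrays and -0.12 to 0.05 in the others. The sample titles carry numbers, and those of the same 4 arrays are the lowest of the series. What these numbers stand for is not given. Smooth muscle markers averaged 3.28 to 3.35 over 8 genes in 3 arrays, Parp1-/- water 2, Parp1-/- water 3 and Parp1-/- DSS 1. The remaining 9 had -0.55 to 0.0049. The targeted gene was no clear check of the labels. Parp1 was -0.41, 1.15 and 0.53 on water and 0.01, 0.51 and 0.77 on DSS in wild-type mice, and -0.03, -0.08 and -0.01 on water and -0.22, -0.09 and 0.03 on DSS in Parp1-/- mice. It was lower in Parp1-/- water than in wild-type water by a log2 difference of -0.47, which did not pass the limma test (adjusted p = 0.273), and whether its probe set lies in the deleted stretch is not given.

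In the heat map of all 46 genes, wild-type water 1 held the most extreme values, the lowest of 11 genes and the highest of 9. Wild-type DSS 1 held the lowest of 8 and the highest of 3, and Parp1-/- water 2 the lowest of 4 and the highest of 7. Wild-type water 2 (3 and 4) and wild-type water 3 (2 and 7) held fewer. Gstk1, the pi-class genes Gstp1 and Gstp2 and several Sult1 genes were low in wild-type water, and the Sult2a genes were high.

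**Figure D1:**
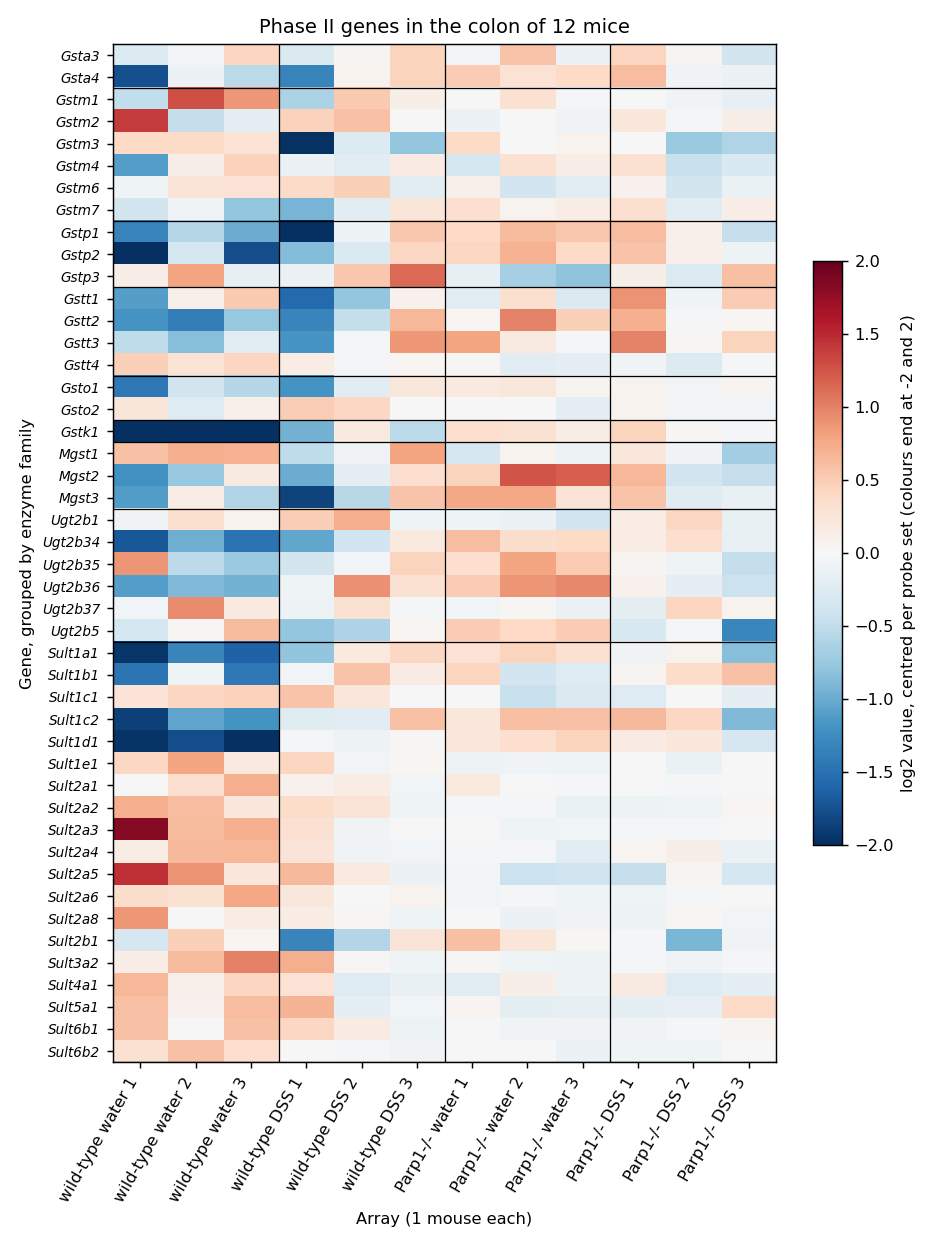
Heat map of the centred log2 value of the 46 genes (vertical axis, grouped by enzyme family with horizontal lines) in 12 arrays (horizontal axis, 3 per group with vertical lines); red is above and blue below the gene's median, and colours end at -2 and 2. Gstk1 is at -4.06 in wild-type water 1, and most Sult2a genes are red in the wild-type water arrays.

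In wild-type colon, 9 of the 46 genes changed with DSS: 7 rose and 2 fell. That is 19.6% of the phase II genes, against 13.0% of all genes tested. At an unadjusted p under 0.05 there were 14, 30.4% against 30.1%. The genes that rose were Gstk1, the sulfotransferases Sult1a1, Sult1b1, Sult1c2 and Sult1d1, and the glucuronosyltransferases Ugt2b34 and Ugt2b36. Those that fell were the mu-class transferase Gstm3 and the hydroxysteroid sulfotransferase Sult2a3. Here and below, a gene was called where limma gave an adjusted p under 0.05, with Benjamini-Hochberg adjustment over 21314 genes. Genes called higher made up 15.2% of the phase II genes and 8.89% of all genes, and genes called lower 4.35% and 4.16%.

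Other lists moved beside these calls. Of the 11 housekeeping genes, 7 were called higher, with a median log2 difference of 1.37. Of 8 markers of absorptive colonocytes, 4 were called higher, with a median of 1.17, and of 7 goblet cell markers 5 were, with a median of 1.66. Neutrophil markers had the highest median of these lists, 1.93, with 4 of 6 called higher and all 6 higher without overlap. The part of each list in the phase II calls was not tested. The housekeeping covariate fit given below cannot separate that level from group, since only wild-type DSS 1 shares it with the water arrays. The median of the phase II genes was -0.02 (0.04 with array medians set to 0), beside -0.05 over all genes. DSS and water arrays did not overlap for 11 of the 46 genes, 23.9%, a share near the 23.6% of all genes.

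Sulfotransferases of family 1 act on phenols, catecholamines, thyroid hormone and oestrogens, and 4 of the 6 measured rose. Mouse Sult1d1 acts on catecholamines and other phenols. Sult1d1 was -1.96, -1.78 and -2.00 on water and -0.02, -0.11 and 0.02 on DSS in wild-type mice, and 0.23, 0.33 and 0.45 on water and 0.16, 0.21 and -0.33 on DSS in Parp1-/- mice. All 3 wild-type water arrays were at or below -1.78, and the other 9 arrays lay between -0.33 and 0.45. Wild-type DSS exceeded wild-type water by 1.88 ± 0.17 (SE; limma adjusted p = 8.45e-05), the smallest adjusted p of the 46 genes. Wild-type DSS 1, whose housekeeping mean was as low as in the water arrays, had -0.02 and sat with the other DSS arrays.

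Sult1a1 was -1.95, -1.31 and -1.61 on water and -0.79, 0.19 and 0.41 on DSS in wild-type mice, and 0.29, 0.45 and 0.31 on water and -0.07, 0.07 and -0.85 on DSS in Parp1-/- mice. This is the main phenol sulfotransferase. Its wild-type groups did not overlap, and wild-type DSS 1 lay between the water arrays and the other DSS arrays. The difference was 1.56 ± 0.32 (SE; limma adjusted p = 0.00992). Sult1c2 was -1.87, -1.06 and -1.20 on water and -0.24, -0.22 and 0.58 on DSS in wild-type mice, and 0.22, 0.60 and 0.59 on water and 0.65, 0.41 and -0.88 on DSS in Parp1-/- mice. Again the wild-type groups did not overlap, and the difference was 1.42 ± 0.38 (SE; limma adjusted p = 0.0337). Sult1b1 was -1.46, -0.08 and -1.43 on water and -0.06, 0.58 and 0.16 on DSS in wild-type mice, and 0.43, -0.38 and -0.26 on water and 0.06, 0.37 and 0.58 on DSS in Parp1-/- mice. This enzyme sulfates thyroid hormone and small phenols. Wild-type water 2 was far above the other water arrays and barely below wild-type DSS 1. The difference, 1.22 ± 0.36 (SE; limma adjusted p = 0.0479), was close to the threshold. Sult1c1 and the oestrogen sulfotransferase Sult1e1 did not pass, with log2 differences of -0.13 and -0.32.

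Gstk1 encodes the kappa-class glutathione transferase of mitochondria and peroxisomes. Gstk1 was -4.06, -2.44 and -2.66 on water and -0.95, 0.18 and -0.52 on DSS in wild-type mice, and 0.33, 0.30 and 0.13 on water and 0.44, 0.02 and -0.02 on DSS in Parp1-/- mice. The wild-type water arrays were the lowest 3, wild-type DSS 1 came next, and no Parp1-/- array was below -0.02. The wild-type difference was 2.62 ± 0.39 (SE; limma adjusted p = 0.00164), the largest of the 46 genes. Gstm3, a cytosolic mu-class enzyme, went the other way. Gstm3 was 0.40, 0.38 and 0.27 on water and -1.98, -0.27 and -0.77 on DSS in wild-type mice, and 0.39, 0.00093 and 0.07 on water and -0.00093, -0.74 and -0.59 on DSS in Parp1-/- mice. Every wild-type DSS array was below every wild-type water array, with wild-type DSS 1 lowest by far. The difference was -1.35 ± 0.36 (SE; limma adjusted p = 0.0312). The other 16 cytosolic transferases and the 3 microsomal enzymes, which sit in membranes and also make leukotriene C4 or reduce lipid hydroperoxides, did not pass the test. Their log2 differences ran from -0.59 in Mgst1 to 1.21 in Gstp2.

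Of the 6 Ugt2 genes, whose enzymes glucuronidate steroids, bile acids and drugs, 2 rose. Ugt2b36 was -1.10, -0.88 and -0.95 on water and -0.09, 0.92 and 0.30 on DSS in wild-type mice, and 0.51, 0.89 and 0.96 on water and 0.09, -0.18 and -0.43 on DSS in Parp1-/- mice. The wild-type groups did not overlap. DSS exceeded water by 1.35 ± 0.25 (SE; limma adjusted p = 0.0052). Ugt2b34 was -1.70, -0.98 and -1.48 on water and -1.03, -0.39 and 0.19 on DSS in wild-type mice, and 0.61, 0.36 and 0.39 on water and 0.15, 0.33 and -0.15 on DSS in Parp1-/- mice. Here wild-type DSS 1 was no higher than the highest water array, and the difference was 0.98 ± 0.29 (SE; limma adjusted p = 0.0476). The other 4, Ugt2b1, Ugt2b35, Ugt2b37 and Ugt2b5, had log2 differences between -0.55 and 0.27 that did not pass.

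**Figure D2:**
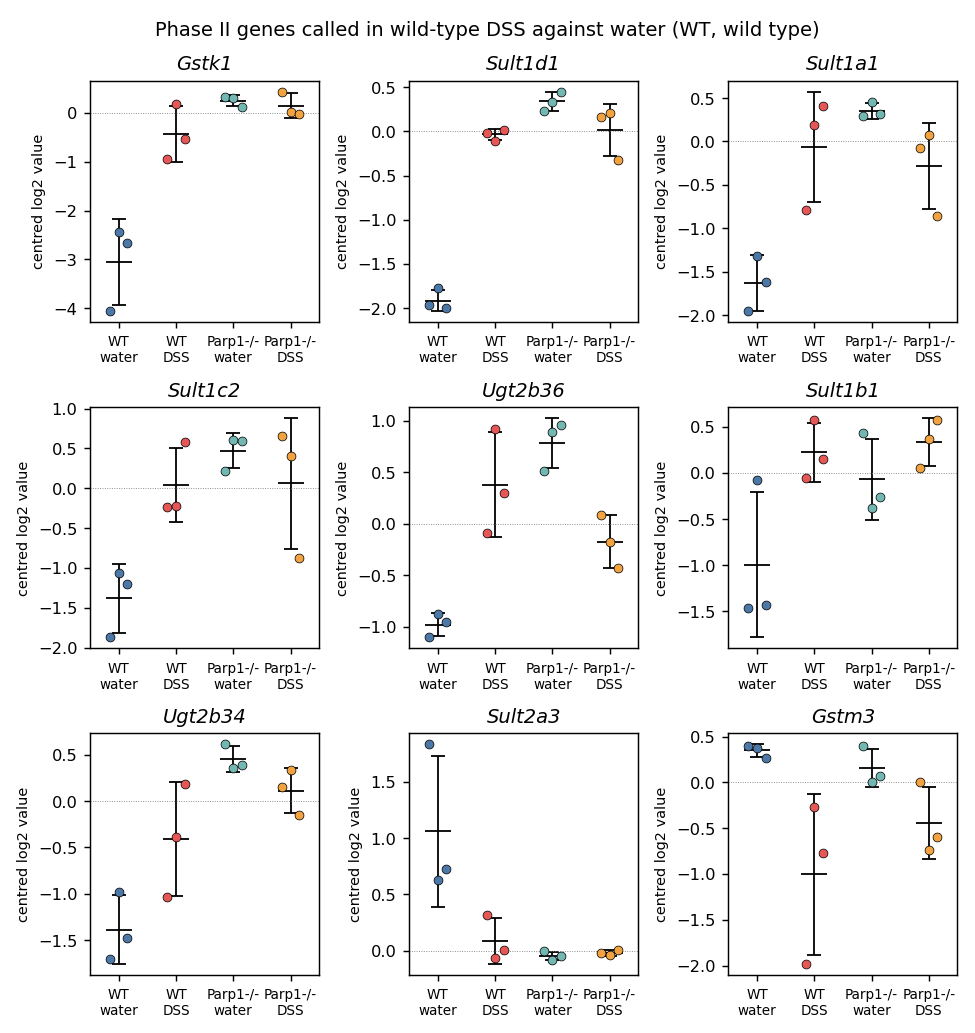
Centred log2 value (vertical axis) of the 9 genes called in wild-type DSS against wild-type water, by group (horizontal axis; points are the 3 mice, the long bar is the mean and the whiskers 1 SD). In Sult1d1 the wild-type water arrays lie at or below -1.78 and every other array at or above -0.33; in Gstm3 the wild-type DSS arrays lie lowest, down to -1.98.

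Sulfotransferases of the 2a group act on hydroxysteroids and bile acids, and they are best known from liver. All 7 measured lay below 0 in wild-type DSS minus wild-type water, with a median of -0.37, and 1 passed the test. Sult2a3 was 1.84, 0.63 and 0.72 on water and 0.31, -0.07 and 0.01 on DSS in wild-type mice, and -0.01, -0.08 and -0.05 on water and -0.03, -0.04 and 0.01 on DSS in Parp1-/- mice. Wild-type water 1 was far above the other arrays, and both wild-type DSS 2 and wild-type DSS 3 were at the level of the Parp1-/- arrays. The difference was -0.98 ± 0.27 (SE; limma adjusted p = 0.0362). The smell receptor genes moved in the same direction, with a median of -0.32 and 99 of 1056 called lower. The other sulfotransferases, Sult2b1, which sulfates cholesterol and pregnenolone, and Sult3a2, Sult4a1, Sult5a1, Sult6b1 and Sult6b2, were also all below 0, with a median of -0.40, and none passed.

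Wild-type DSS 1 had a housekeeping mean like that of the wild-type water arrays. It lay above all 3 of them for 11 phase II genes, 23.9%, against 25.8% of all genes, and below all 3 for 16, 34.8%, against 31.2%, shares near those of all genes. This is 1 mouse, with no replicate at that level, and it is part of the wild-type DSS group behind the calls. The plot against the housekeeping mean shows this array for 6 genes: Gstp1, at -2.06, was lower in it than in any other array.

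**Figure D3:**
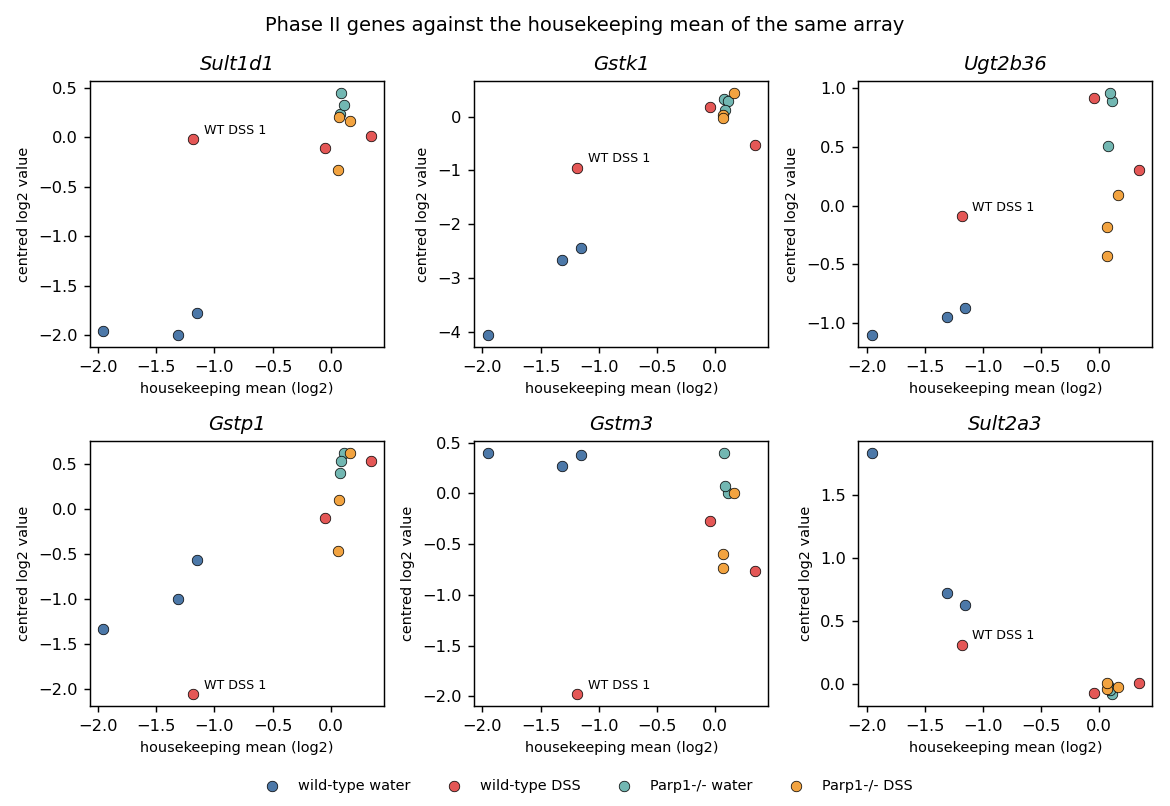
Centred log2 value of 6 phase II genes (vertical axes) against the mean of 11 housekeeping genes in the same array (horizontal axes, log2); each point is 1 mouse, coloured by group. Wild-type DSS 1 (WT DSS 1) lies at a housekeeping mean of -1.18, near the wild-type water arrays, and its Sult1d1 value of -0.02 is far above their values.

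The call of 9 depended on the setting. With the housekeeping mean of each array as a covariate, limma called 11, of which 2 rose and 9 fell: Sult1d1 (1.83, adjusted p = 0.00189) and Gstk1 (1.66, adjusted p = 0.0425) remained higher and Gstm3 (-2.23, adjusted p = 0.00894) lower. Added on the lower side were Gsta4, Gstm1, Gsto1, Gstp1, Gstt1, Mgst1, Mgst3 and Sult2b1. Quantile normalization called 0, where Sult1d1 differed by 0.89 with a limma adjusted p of 0.112. Without wild-type DSS 1, limma called 17, of which 11 rose and 6 fell, and without wild-type DSS 2 it called 4. Gstp1 and Gsto1 were called in opposite directions by setting. With the covariate they were lower, by -1.39 (limma adjusted p = 0.034) and -0.79 (limma adjusted p = 0.0245). Without wild-type DSS 1 they were higher, by 1.18 (limma adjusted p = 0.0193) and 0.79 (limma adjusted p = 0.0468).

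The promoters of the 4 genes with the smallest limma adjusted p in this comparison are shown because these genes rose together and 2 of them, Sult1d1 and Ugt2b36, lie in the same stretch of chromosome 5. Each runs from 250 bases before to 50 bases after the start of transcription, 5′ to 3′ on the gene's strand, from RefSeq on GRCm38.p6. No source used here names the genome build of the array. Capitals mark matches to either of the 2 motifs searched on both strands, TGACNNNGC, the core of the antioxidant response element bound by Nrf2, and GCGTG, the core of the xenobiotic response element bound by the aryl hydrocarbon receptor.
Sult1d1 promoter, chr5:87568957-87569256, minus strand: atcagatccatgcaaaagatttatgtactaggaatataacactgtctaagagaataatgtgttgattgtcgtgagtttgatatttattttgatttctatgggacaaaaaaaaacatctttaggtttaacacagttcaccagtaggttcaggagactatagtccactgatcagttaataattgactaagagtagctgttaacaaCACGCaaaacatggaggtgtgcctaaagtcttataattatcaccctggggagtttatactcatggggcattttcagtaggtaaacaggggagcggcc
Gstk1 promoter, chr6:42245685-42245984, plus strand: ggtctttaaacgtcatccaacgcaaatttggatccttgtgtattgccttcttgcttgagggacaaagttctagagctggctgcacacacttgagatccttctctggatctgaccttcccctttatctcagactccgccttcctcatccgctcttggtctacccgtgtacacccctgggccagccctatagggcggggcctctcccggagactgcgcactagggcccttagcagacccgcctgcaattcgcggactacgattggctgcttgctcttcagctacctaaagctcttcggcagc
Ugt2b36 promoter, chr5:87092506-87092805, minus strand: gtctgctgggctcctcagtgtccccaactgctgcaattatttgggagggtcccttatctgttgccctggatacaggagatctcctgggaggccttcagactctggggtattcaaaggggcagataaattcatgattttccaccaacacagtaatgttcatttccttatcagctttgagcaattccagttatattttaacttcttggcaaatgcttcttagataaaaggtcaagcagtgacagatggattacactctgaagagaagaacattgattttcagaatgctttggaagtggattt
Sult1a1 promoter, chr7:126676369-126676668, minus strand: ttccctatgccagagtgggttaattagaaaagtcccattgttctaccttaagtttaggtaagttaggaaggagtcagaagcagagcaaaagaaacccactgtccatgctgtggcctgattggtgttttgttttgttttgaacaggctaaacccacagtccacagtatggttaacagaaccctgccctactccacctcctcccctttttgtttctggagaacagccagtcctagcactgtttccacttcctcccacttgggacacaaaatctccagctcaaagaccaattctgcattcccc

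Sult1d1 held 1 match to GCGTG, read on the other strand as CACGC, and the other 3 promoters held neither motif. Among the promoters of 41 of the 46 genes found in the RefSeq table, 3 of 52 (5.77%) held TGACNNNGC, against 12.4% of 32851 promoters of all genes. The 3 belonged to Gsta3, Gstm7 and Mgst1, none of which passed the test after DSS. GCGTG was in 9 of 52 (17.3%), against 32.4% of all promoters, and these belonged to Gstm1, Gstp1, Gstp3, Mgst3, Sult1b1, Sult1d1 and Sult2b1. A match describes the letters of this window only.

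Lists of genes around the enzymes are read here against the 8.89% of all genes called higher and 4.16% called lower in wild-type DSS. The housekeeping genes moved in the same direction, with 7 of 11 called higher and a median of 1.37. The part of that array-wide level in these lists and in the regulators below was not tested. Their values under quantile normalization or with a covariate are not given here. Of 14 measured genes of glutathione synthesis and recycling, 3 rose with DSS: Gclc and Gclm, the subunits of the rate-limiting ligase, by 1.59 ± 0.46 (SE; limma adjusted p = 0.0423) and 1.81 ± 0.37 (SE; limma adjusted p = 0.00935), and the dipeptidase Dpep1 by 1.19 ± 0.34 (SE; limma adjusted p = 0.0416). Of 6 measured genes for UDP-glucuronate and related transferases, 3 rose, among them Ugp2, which makes UDP-glucose, by 1.98 ± 0.36 (SE; limma adjusted p = 0.00521). Of 8 in the PAPS list, 1 rose, a share near that of all genes: Bpnt2, which breaks down what is left of PAPS after transfer, by 1.91 ± 0.43 (SE; limma adjusted p = 0.0158). Of 9 export pumps and carriers, 1 rose, again near the share of all genes, the pump Abcg2, by 1.20 ± 0.30 (SE; limma adjusted p = 0.0253). Of 6 genes listed under cleavage of conjugates, 1 rose, the sulfatase Arsb, by 1.40 ± 0.28 (SE; limma adjusted p = 0.00935). Whether Arsb acts on products of these sulfotransferases was not tested.

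Of 21 measured regulators of xenobiotic genes, 7 rose and 1 fell in wild-type DSS, where 8.89% of all genes were called higher and 4.16% lower. Nfe2l2 was -2.23, -2.00 and -2.21 on water and -0.09, 0.14 and 0.06 on DSS in wild-type mice, and 0.27, 0.12 and 0.14 on water and -0.06, 0.24 and -0.09 on DSS in Parp1-/- mice. The wild-type water arrays were at or below -2.00, and the other 9 were between -0.09 and 0.27. Nfe2l2 rose by 2.18 ± 0.15 (SE; limma adjusted p = 3.78e-05), and Arnt, the partner of the aryl hydrocarbon receptor, by 2.34 ± 0.26 (SE; limma adjusted p = 0.000297). Ahr rose by 1.21 ± 0.21 (SE; limma adjusted p = 0.00339), and its repressor Ahrr fell by a log2 difference of -0.71 (limma adjusted p = 0.0165). Of 17 measured Nrf2 target genes, 4 rose: Gclc, Gclm, the ferritin chain Fth1 by 1.52 ± 0.21 (SE; limma adjusted p = 0.00102) and the thioredoxin reductase Txnrd1 by 1.55 ± 0.43 (SE; limma adjusted p = 0.0376). Hmox1 and Nqo1, textbook targets of Nrf2, did not pass, with -0.27 and -0.63.

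Between the water groups, 18 of the 46 genes differed by genotype, 39.1% against 31.6% of all genes. In Parp1-/- colon 9 were higher (19.6%, against 17.9% of all genes) and 9 lower (19.6%, against 13.7%). Gstk1, the pi-class Gstp2, the theta-class Gstt2, the microsomal Mgst2, Sult1a1, Sult1c2, Sult1d1, Ugt2b34 and Ugt2b36 were higher. Gstt4, Sult1c1, Sult1e1, 5 Sult2a genes and Sult6b2 were lower. The groups did not overlap for 31 genes, 67.4% against 55.4% of all genes, of which 15 were higher (32.6%, against 26.2%) and 16 lower (34.8%, against 29.2%). At an unadjusted p under 0.05 there were 27, 58.7% against 46.5%. This comparison uses the same 3 wild-type water arrays as the wild-type DSS comparison, so values of the 2 are set side by side without a test of their likeness.

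Sult1d1 was higher in Parp1-/- water by 2.25 ± 0.17 (SE; limma adjusted p = 3.41e-05), beside 1.88 for DSS in the wild type. Gstk1 differed by 3.31 ± 0.39 (SE; limma adjusted p = 0.000297), beside 2.62. For Sult1a1 the difference was 1.98 ± 0.32 (SE; limma adjusted p = 0.00186), beside 1.56, and for Sult1c2 1.85 ± 0.38 (SE; limma adjusted p = 0.00607), beside 1.42. The 2 glucuronosyltransferases differed by 1.76 ± 0.25 (SE; limma adjusted p = 0.000806) in Ugt2b36 and 1.84 ± 0.29 (SE; limma adjusted p = 0.00154) in Ugt2b34, beside 1.35 and 0.98. Sult1b1, called with DSS, was not called here, with 0.93, and Gstm3 had -0.19.

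The pi and theta classes include enzymes that handle electrophiles and small halogenated compounds. Gstp2 was -2.26, -0.36 and -1.77 on water and -0.87, -0.30 and 0.42 on DSS in wild-type mice, and 0.41, 0.69 and 0.39 on water and 0.57, 0.10 and -0.10 on DSS in Parp1-/- mice. Wild-type water 2 was well above the other 2 water arrays and still below every Parp1-/- water array, and the difference was 1.96 ± 0.44 (SE; limma adjusted p = 0.00898). Gstt2 was -1.18, -1.39 and -0.75 on water and -1.32, -0.47 and 0.67 on DSS in wild-type mice, and 0.03, 0.98 and 0.48 on water and 0.70, -0.03 and 0.04 on DSS in Parp1-/- mice. Parp1-/- water 1 was the lowest of its group and above the 3 wild-type water arrays. The difference was 1.60 ± 0.44 (SE; limma adjusted p = 0.0195). Gstp1, the close neighbour of Gstp2 on chromosome 19, differed by 1.49 with a limma adjusted p of 0.0525.

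Mgst2 was -1.21, -0.75 and 0.18 on water and -0.99, -0.18 and 0.34 on DSS in wild-type mice, and 0.45, 1.25 and 1.20 on water and 0.66, -0.38 and -0.47 on DSS in Parp1-/- mice. Mgst2 is a membrane enzyme that can make leukotriene C4. Its 2 highest values were those of Parp1-/- water 2 and 3, which had high smooth muscle markers. The difference was 1.56 ± 0.44 (SE; limma adjusted p = 0.023). Gstt4 was 0.48, 0.28 and 0.42 on water and 0.15, -0.03 and 0.04 on DSS in wild-type mice, and 0.03, -0.20 and -0.19 on water and -0.07, -0.28 and -0.03 on DSS in Parp1-/- mice. The wild-type water arrays were the highest 3 for this theta-class gene, and Parp1-/- water was lower by a log2 difference of -0.52 ± 0.14 (SE; limma adjusted p = 0.022).

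Sulfotransferases made up 8 of the 9 lower genes. All 7 Sult2a genes lay below 0, with a median of -0.58, and 5 passed. The smell receptor genes moved in the same direction, with a median of -0.52 and 392 of 1056 called lower. Since close copies may share signal on a probe set, the 5 Sult2a calls may not be separate results. Sult2a5 was 1.47, 0.90 and 0.23 on water and 0.64, 0.20 and -0.12 on DSS in wild-type mice, and -0.05, -0.43 and -0.39 on water and -0.46, 0.05 and -0.35 on DSS in Parp1-/- mice. Wild-type water 1 was highest, and the difference was -1.16 ± 0.30 (SE; limma adjusted p = 0.0165). Sult2a3, whose arrays are given above, differed by -1.11 ± 0.27 (SE; limma adjusted p = 0.0124). Sult2a2 was 0.72, 0.61 and 0.21 on water and 0.37, 0.25 and -0.08 on DSS in wild-type mice, and -0.04, -0.05 and -0.13 on water and -0.10, -0.09 and 0.04 on DSS in Parp1-/- mice. Here the Parp1-/- arrays all lay within a narrow band near 0, and the difference was -0.59 ± 0.17 (SE; limma adjusted p = 0.0273). Sult2a4 was 0.15, 0.64 and 0.66 on water and 0.26, -0.07 and -0.05 on DSS in wild-type mice, and -0.03, -0.04 and -0.22 on water and 0.03, 0.12 and -0.13 on DSS in Parp1-/- mice. Wild-type water 1 was below wild-type DSS 1 and far below the other 2 water arrays, and the difference was -0.58 ± 0.18 (SE; limma adjusted p = 0.0298). Sult2a6 was 0.34, 0.31 and 0.77 on water and 0.23, -0.002 and 0.08 on DSS in wild-type mice, and -0.06, -0.02 and -0.08 on water and -0.09, -0.03 and 0.002 on DSS in Parp1-/- mice. The difference was -0.52 ± 0.16 (SE; limma adjusted p = 0.0272), with the 3 wild-type water arrays as the highest 3.

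Sult1e1 was 0.41, 0.78 and 0.19 on water and 0.44, -0.05 and 0.03 on DSS in wild-type mice, and -0.10, -0.06 and -0.09 on water and -0.0034, -0.14 and 0.0034 on DSS in Parp1-/- mice. Wild-type DSS 1 fell among the water arrays for this oestrogen sulfotransferase, and Parp1-/- water differed by -0.55 ± 0.18 (SE; limma adjusted p = 0.0419). Sult1c1 was 0.28, 0.43 and 0.46 on water and 0.57, 0.22 and -0.01 on DSS in wild-type mice, and 0.0018, -0.44 and -0.28 on water and -0.26, -0.0018 and -0.19 on DSS in Parp1-/- mice. The 4 highest values were those of the arrays with a low housekeeping mean, and the difference was -0.63 ± 0.18 (SE; limma adjusted p = 0.0249). Sult6b2 was 0.30, 0.59 and 0.34 on water and 0.01, -0.03 and -0.07 on DSS in wild-type mice, and 0.0032, -0.0032 and -0.12 on water and -0.08, -0.08 and 0.0041 on DSS in Parp1-/- mice. All arrays outside wild-type water lay between -0.12 and 0.01, and the difference was -0.45 ± 0.13 (SE; limma adjusted p = 0.0281). Over the 3 Parp1-/- water mice the SD was 0.02 in Sult1e1, 0.23 in Sult1c1 and 0.07 in Sult6b2.

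Marker lists moved beside these calls too. Of the housekeeping genes, 9 of 11 were called higher in Parp1-/- water, with a median of 1.63, and of the smell receptor genes 392 of 1056 were called lower, with a median of -0.52. Goblet cell markers were called higher in 7 of 7, with a median of 1.99, and colonocyte markers in 5 of 8, with a median of 1.68. For smooth muscle markers the median was 2.70, and limma called 0 of 8, with 3 at an unadjusted p under 0.05. With array medians set to 0, the median of all genes shifted by 0.11, and limma called 14 phase II genes, 10 higher and 4 lower, in place of 9 and 9. Only Sult1d1 was called with the housekeeping covariate (2.18, limma adjusted p = 0.00541). The housekeeping means of these groups do not overlap, so that fit cannot separate level from group. Leaving out the 3 arrays of high smooth muscle markers kept Parp1-/- water 1 as the only mouse of its group, so calls of that fit are not given here. Without Parp1-/- water 2, or without Parp1-/- water 3, 8 were called.

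Genes of co-substrate supply were also called between the water groups, where 17.9% of all genes were called higher and 13.7% lower. In Parp1-/- water 6 of 14 genes of glutathione synthesis were higher, Gclc by 2.82 ± 0.46 (SE; limma adjusted p = 0.0018), Gclm by 2.75 ± 0.37 (SE; limma adjusted p = 0.000631) and the glutathione reductase Gsr by 2.25 ± 0.48 (SE; limma adjusted p = 0.0071) among them. For UDP-glucuronate 4 of 6 were higher, led by Ugp2 with 2.86 ± 0.36 (SE; limma adjusted p = 0.000455), and for PAPS 5 of 8, including the synthase Papss2 with 1.42 ± 0.38 (SE; limma adjusted p = 0.0177) and the sulfate carrier Slc26a2 with 1.33 ± 0.41 (SE; limma adjusted p = 0.0308). Of the 9 export genes 5 were higher and 1, Abcb1b, was lower. The pump Abcc3 differed by 2.11 ± 0.51 (SE; limma adjusted p = 0.0118). Of 21 regulators 10 were higher and 1 lower, and Nfe2l2 differed by 2.32 ± 0.15 (SE; limma adjusted p = 2.37e-05).

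In Parp1-/- colon, limma called none of the 46 genes with DSS (0 called, smallest adjusted p = 0.674), where 0.00938% of all genes were called, which is 2 genes. With quantile normalization 71 of all genes were called higher and 14 lower. With 3 mice in each group, a lack of calls does not show that the genes were unchanged. At an unadjusted p under 0.05 there were 3: Ugt2b36, Ugt2b5 and Mgst2. They made up 6.52% of the phase II genes, against 2.86% of all genes. DSS and water arrays did not overlap for 8 genes, 17.4% against 12.5% of all genes, and in each of the 8 the DSS arrays were lower, where 4.70% of all genes were lower without overlap. The 8 were Gstm3, Sult1a1, Sult1d1, Sult2b1, Ugt2b34, Ugt2b35, Ugt2b36 and Ugt2b5. No gene was higher without overlap, beside 7.82% of all genes.

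The Ugt2 genes made up 4 of those 8. Ugt2b36 had 0.51, 0.89 and 0.96 with water and 0.09, -0.18 and -0.43 with DSS in the Parp1-/- mice, with a log2 difference of -0.96 ± 0.25 (SE; limma adjusted p = 0.674). Ugt2b5 was -0.35, 0.02 and 0.64 on water and -0.77, -0.61 and 0.04 on DSS in wild-type mice, and 0.52, 0.40 and 0.51 on water and -0.30, -0.02 and -1.30 on DSS in Parp1-/- mice. The Parp1-/- water arrays were close together and above the DSS arrays, of which Parp1-/- DSS 3 was far lower than the others. The difference was -1.02 ± 0.35 (SE). Ugt2b35 was 0.89, -0.52 and -0.74 on water and -0.36, -0.06 and 0.44 on DSS in wild-type mice, and 0.34, 0.78 and 0.51 on water and 0.06, -0.08 and -0.48 on DSS in Parp1-/- mice. The difference was -0.71 ± 0.38 (SE), and for Ugt2b34 it was -0.34 ± 0.29. By contrast Ugt2b1 and Ugt2b37 had values above 0, 0.34 and 0.15, without passing the test.

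**Figure D4:**
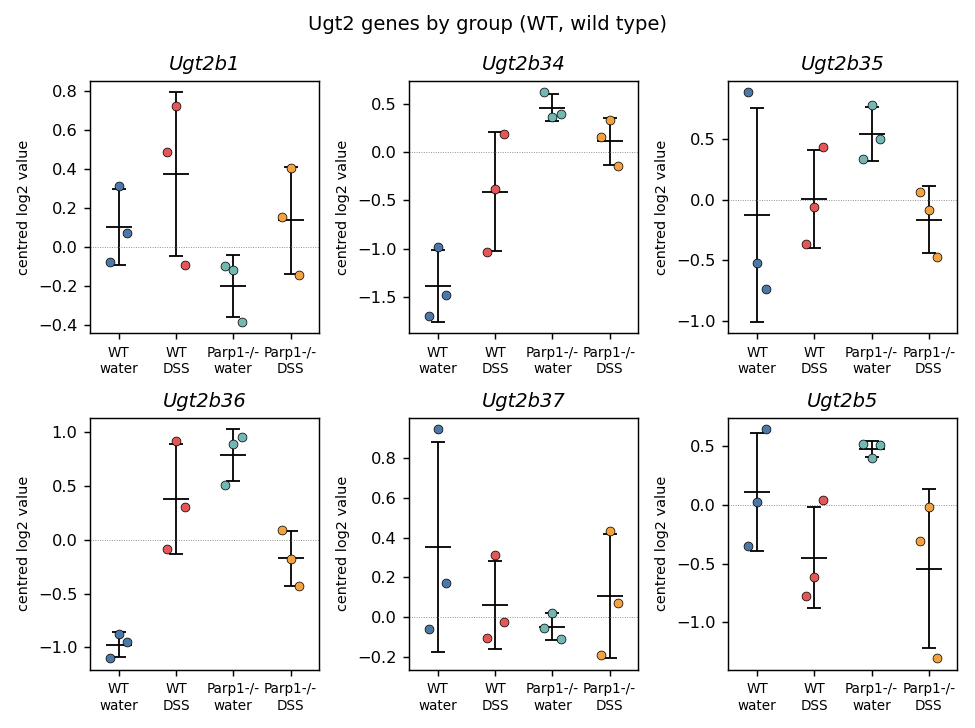
Centred log2 value (vertical axes, with ranges that differ by panel) of the 6 Ugt2 genes by group (horizontal axes; points are the 3 mice, the long bar is the mean and the whiskers 1 SD). In Ugt2b34, Ugt2b35, Ugt2b36 and Ugt2b5 every Parp1-/- DSS array lies below every Parp1-/- water array; none of these differences was called.

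Housekeeping genes had a median of 0.0041 in this comparison, with 0 of 11 called. Smooth muscle markers had a median of -1.20, since 2 of the 3 Parp1-/- water arrays and 1 of the 3 Parp1-/- DSS arrays were high in them, and neutrophil markers a median of 1.14, with all 6 higher without overlap. The part of neutrophils in the lower Ugt2 values was not tested. In a fit of 8 arrays, which leaves out the 4 with a low housekeeping mean, 7 genes had an unadjusted p under 0.05 and none was called (smallest limma adjusted p = 0.356, for Ugt2b36). The pump Abcc2, which exports glucuronides and glutathione conjugates, had -1.06 ± 0.19 (SE; limma adjusted p = 0.173), and none of the genes of co-substrate supply or export was called.

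Under DSS no difference between genotypes passed the test: by limma 0 of the 46 genes were called, as were 0 of all genes, and no phase II gene had groups without overlap, beside 6.55% of all genes (2.04% higher and 4.52% lower). The smallest adjusted p was 0.872. At an unadjusted p under 0.05 there were 3, 6.52% against 2.78% of all genes: Gstt1 at 1.18 ± 0.47 (SE), Ugt2b36 at -0.55 ± 0.25 and Sult1c1 at -0.41 ± 0.18. Gstt1 was -1.11, 0.11 and 0.52 on water and -1.55, -0.77 and 0.09 on DSS in wild-type mice, and -0.21, 0.32 and -0.28 on water and 0.90, -0.09 and 0.51 on DSS in Parp1-/- mice. Wild-type DSS 1 was the lowest array for this theta-class transferase. In the fit of 8 arrays, which leaves that mouse out, the Gstt1 difference was 0.78 ± 0.36 (SE) and that of Ugt2b36 -0.78 ± 0.24. With 3 mice in each group, a p that misses the threshold does not show that the genotypes were alike.

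The DSS response differed between genotypes for 4 of the 46 genes, 8.70% against 2.54% of all genes, by the interaction term of the same model. This term contains the same wild-type water arrays as the wild-type DSS comparison and the comparison of the water groups. Its calls are therefore not separate from the calls of those comparisons. At an unadjusted p under 0.05 there were 9, 19.6%, near the 17.5% of all genes. All 4 were lower in Parp1-/- than in wild type, where 2.33% of all genes were called lower and 0.216% higher. Gstk1 had a difference of responses of -2.73 ± 0.55 (SE; limma adjusted p = 0.0263). Ugt2b36 had -2.31 ± 0.35 (SE; limma adjusted p = 0.00693), Sult1d1 -2.20 ± 0.24 (SE; limma adjusted p = 0.00177) and Sult1a1 -2.20 ± 0.46 (SE; limma adjusted p = 0.0294). In each of them wild-type water was the lowest group, so that the wild-type response was positive, and Parp1-/- water was not below Parp1-/- DSS.

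For Ugt2b36, Sult1d1 and Sult1a1 the responses pointed in opposite directions, with no overlap between water and DSS in either genotype. For Gstk1 the Parp1-/- groups overlapped. Gstm3 was the only gene that was lower without overlap in both genotypes, by -1.35 in the wild type and -0.60 in Parp1-/-, and its difference of responses, 0.75, did not pass. Over all 46 genes the fitted responses were above 0 in both genotypes for 7, below 0 in both for 10, and opposite for the remaining 16 and 13.

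**Figure D5:**
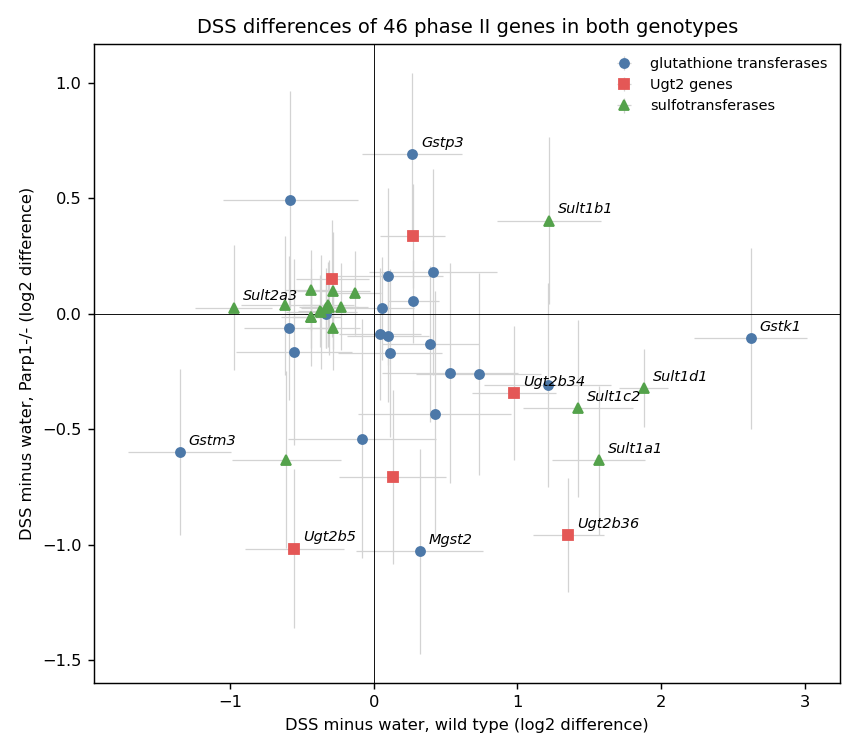
Log2 difference of DSS minus water in wild type (horizontal axis) and in Parp1-/- (vertical axis) for 46 phase II genes, with marker shape and colour by enzyme class and grey lines of 1 SE. Gstk1, Sult1d1, Sult1a1 and Ugt2b36 lie at the right with values at or below 0 on the vertical axis, and Gstm3 lies lower left.

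Beside these calls stood the housekeeping genes, with a median difference of responses of -1.33 and 1 of 11 called lower. The colonocyte markers had -1.19, with 3 of 8 called lower, and the goblet cell markers -1.51, with 4 of 7. Of the regulators 3 of 21 were called lower, of the Nrf2 targets 2 of 17, where 2.33% of all genes were. For UDP-glucuronate it was 1 of 6 and for glutathione synthesis 1 of 14. No gene of the PAPS, export or cleavage lists was called. Among the pathway lists, Nfe2l2 (-2.33 ± 0.21, SE; limma adjusted p = 0.00169), Arnt (-2.37 ± 0.37, SE; limma adjusted p = 0.00843), Bach1, a repressor at antioxidant elements (-1.87 ± 0.40, SE; limma adjusted p = 0.0338), Ugp2 (-2.44 ± 0.51, SE; limma adjusted p = 0.031), Gclm (-2.27 ± 0.52, SE; limma adjusted p = 0.0454) and Fth1 (-1.68 ± 0.30, SE; limma adjusted p = 0.0149) were also called lower. With the housekeeping covariate, Sult1d1 (-2.15, adjusted p = 0.00456) and Ugt2b36 (-1.86, adjusted p = 0.027) remained called by limma, Gstk1 and Sult1a1 did not, and Gstt1 was called higher (2.49, adjusted p = 0.0287). Under quantile normalization 0 of the 46 were called. The fit without the 3 arrays of high smooth muscle markers had Parp1-/- water 1 as the only mouse of its group, so its calls are not given here.

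By position, 9 of the 46 genes lie on chromosome 5 in the order Ugt2b34, Ugt2b1, Ugt2b35, Ugt2b36, Ugt2b5, Ugt2b37, Sult1b1, Sult1d1 and Sult1e1. Called and uncalled genes were mixed along it. In wild-type DSS minus water the log2 differences were, in that order, 0.98, 0.27, 0.13, 1.35, -0.55, -0.29, 1.22, 1.88 and -0.32. The 7 Sult2a genes lie together on chromosome 7 and all had values below 0. On chromosome 3, where the 6 mu-class genes lie, Gstm3 at -1.35 stood between Gstm6 at 0.06 and Gstm2 at 0.10.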

How the data were processed

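The sources were the series' processed table and its labels. RNA of 12 mice was labelled with biotin for Affymetrix arrays, per the labels' protocols. The deposited values were on a log2 scale by assumption; no source used here names the software, background correction or normalization. Values ran from -4.83 to 5.47 and every probe set had a median of 0, within 5e-07. Signal over background is unknown, and the number of arrays limits the precision. No 2 arrays were identical.

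Probe sets were named from the platform annotation: of 31693, 22586 had 1 symbol, 1756 several and 7351 none, and 22406 of the first kind had an entrez ID in RefSeq GRCm38.p6. Probe sets of a gene were averaged. The 4 groups entered 1 linear model over 12 arrays (limma 3.58.1, R 4.3.3; lmFit and eBayes), with 5 contrasts and Benjamini-Hochberg adjustment over 21314 genes; the code was tested on simulated data. Errors are model standard errors, or SDs where stated. The mice of a group were separate animals.

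Any of the 46 genes could be named, and all arrays were given for the up to 20 called in a contrast. From each pathway list, up to 4 called genes of largest change, or the 2 of smallest p, could be named; Hmox1, Nqo1, Ahr and Ahrr, outside that rule in places, were chosen after their values were seen, as were the further genes whose arrays are given. The genes, lists and markers were chosen with earlier results of these data known. Promoters came from RefSeq and motifs were searched in Python 3.11.15 with pandas 2.3.3; figures used matplotlib 3.10.9.

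Alternatives were quantile normalization, array medians set to 0, every probe set on its own, eBayes with trend and robust options, only the groups compared, housekeeping or smooth muscle means as covariates, 8 arrays without those of low housekeeping level, and leaving out each array. A fit of 9 arrays without those of high smooth muscle markers was chosen after seeing the data.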

Additional observations from a re-analysis of the deposited data

Results flagged for a closer look

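For 4 phase II genes the test of the difference between the DSS responses of the 2 genotypes passed the threshold, with limma and Benjamini-Hochberg adjustment over 21314 genes. The difference of responses, Parp1-/- minus wild type, was -2.73 for Gstk1, the kappa-class glutathione transferase, -2.31 for Ugt2b36, -2.20 for Sult1d1 and -2.20 for Sult1a1. In all 4 genes the 3 wild-type water arrays were lowest as a group, and the same arrays had housekeeping means between -1.96 and -1.15. All 4 were also called in wild-type DSS against water and between the water groups. Those comparisons use the same 3 arrays, so the calls are not separate. The part of that array-wide level in the 4 genes was not tested. In the covariate fit Sult1d1 and Ugt2b36 were called, and Gstk1 and Sult1a1 were not. That fit cannot separate level from group, because outside wild-type water only wild-type DSS 1, at -1.18, had the low level.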

How the results depend on the processing

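In wild-type DSS against water, 9 genes were called, and the count was 0 with quantile normalization, 2 with only the groups compared, 3 with the 9 arrays other than those of high smooth muscle markers, an alternative chosen after seeing the data, and 4 to 17 on leaving out 1 array: 17 when wild-type DSS 1 was left out, 4 for wild-type DSS 2, and 5 for wild-type DSS 3, wild-type water 3, Parp1-/- water 2 or Parp1-/- water 3. Between the water groups 18 were called. The count was 7 with quantile normalization, 1 with the housekeeping covariate and 5 with the smooth muscle covariate. It was 8 to 24 on leaving out 1 array, 8 without Parp1-/- water 2 or Parp1-/- water 3. The 9 arrays hold only Parp1-/- water 1 of its group, so no count is given for them here. For the difference of responses 4 were called. The count was 0 with quantile normalization and 2 with trend and robust options or the smooth muscle covariate. It was 2 to 7 on leaving out 1 array: 7 when wild-type DSS 1 was left out, and 2 for wild-type DSS 2, Parp1-/- DSS 1, Parp1-/- DSS 3 or any 1 Parp1-/- water array. In the other 2 comparisons the count was 0 under every alternative run that left more than 1 mouse per group. The 31 single-gene calls gave 616 values under alternatives: 405 kept the call, 211 lost it and 0 changed sign. These totals include the fit of 9 arrays and do not measure robustness, as some alternatives cannot change a log2 difference. They are every probe set on its own, since each gene had 1, trend and robust options, only the groups compared, and leaving out an array of another group. Sult1d1 between the water groups kept its call under every alternative that left more than 1 mouse per group. In the wild type Sult1d1 and Gstk1 lost theirs only with quantile normalization. Why the calls were lost was not tested. No paired analysis was made, because each array came from a separate mouse and the labels give no pairs. Levels near background could not be judged from centred values.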
